A study of Mus musculus with 3 samples.

Results

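The proteasome genes of inflammation-experienced regulatory T cells (Tregs) were described in 3 polyA+ RNA-seq libraries. They were taken as the protein-coding genes whose names begin with Psma to Psmg followed by a digit, which gave 50 of 55536 annotated genes. A further 4 genes with such names are annotated as pseudogenes and were left out. The cells came from an adult male mouse aged 6 months, of a strain that the labels name Foxp3CreERT2 x Rosa26YFP, in which Cre-ERT2 is produced from the Foxp3 gene and a YFP reporter sits at Rosa26. There is 1 group with 1 biological replicate. Its 3 technical replicates are called library 1, 2 and 3 by their number in the labels, which name no treatment and no tissue. Resting Tregs and other T cells were not analysed here, so every comparison below is between genes within a library or between libraries.

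The proteasome is the protease that degrades ubiquitin-tagged proteins. Its 20S core is a barrel of outer alpha and inner beta rings, and its 19S cap binds ubiquitin chains, unfolds the substrate with a ring of ATPases and feeds it into the core. In lymphocytes and in cells exposed to interferon-gamma, the constitutive catalytic subunits encoded by Psmb5, Psmb6 and Psmb7 can be replaced by the inducible subunits of Psmb8, Psmb9 and Psmb10, which gives the immunoproteasome. Immunoproteasomes and the activator PA28 are best known for shaping the peptides that MHC class I molecules present.

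Estimated counts assigned to genes totalled 11829501 in library 1, 14136139 in library 2 and 10667765 in library 3. The proteasome genes took 0.824%, 0.834% and 0.79% of these. All 7 Treg and T cell markers examined, Foxp3 among them, were at 1 TPM (a transcript level adjusted for length and library total) or more in every library, with summed levels of 3647, 3462 and 3795 TPM. Foxp3 itself, the defining factor of Tregs, had 18, 14.2 and 16 TPM. Markers of other cells were low but uneven: the 5 B cell markers summed to 20.5, 45.2 and 57.5 TPM, the 4 myeloid markers to 3.11, 36 and 14.2 TPM, and the 3 haemoglobin genes to 2.85, 43.6 and 256 TPM, with Hba-a2 at 0 in library 1. The 4 NK and CD8 T cell markers summed to 6.91, 12.9 and 17 TPM and the 3 plasma cell markers to 40.5, 55.5 and 52.7 TPM. Of the plasma cell markers, Xbp1 had 38.9, 35.8 and 30.3 TPM, Jchain 0.99, 19.5 and 22.3 TPM, and Sdc1 0.58, 0.24 and 0.11 TPM. In such bulk libraries, fewer cells of a type and less RNA per cell cannot be told apart. The labels give the 3 libraries as technical replicates of 1 biological replicate and do not say at which step they were divided. The p-values between libraries measure only how far these libraries lie apart.

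Nearly all proteasome genes were expressed. Of the 50 genes, 48 reached 1 TPM in every library, and 47 reached 10 TPM. The median of the 50 mean levels was 155 TPM, against 15.6 TPM over the 12470 genes of any type that reached 1 TPM in every library. The 2 genes under the limit belong to proteasomes of other tissues. Psma8, the alpha subunit of the testis proteasome, had 0, 1 and 1 counts. Psmb11, the catalytic subunit of the thymoproteasome of cortical thymic epithelium, had 2, 1 and 0 counts. A gene at 0 counts could still have up to 3 counts, or 0.254, 0.212 and 0.281 CPM (counts scaled to library size) in libraries 1, 2 and 3, so both lay at or under this floor.

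**Figure D1:**
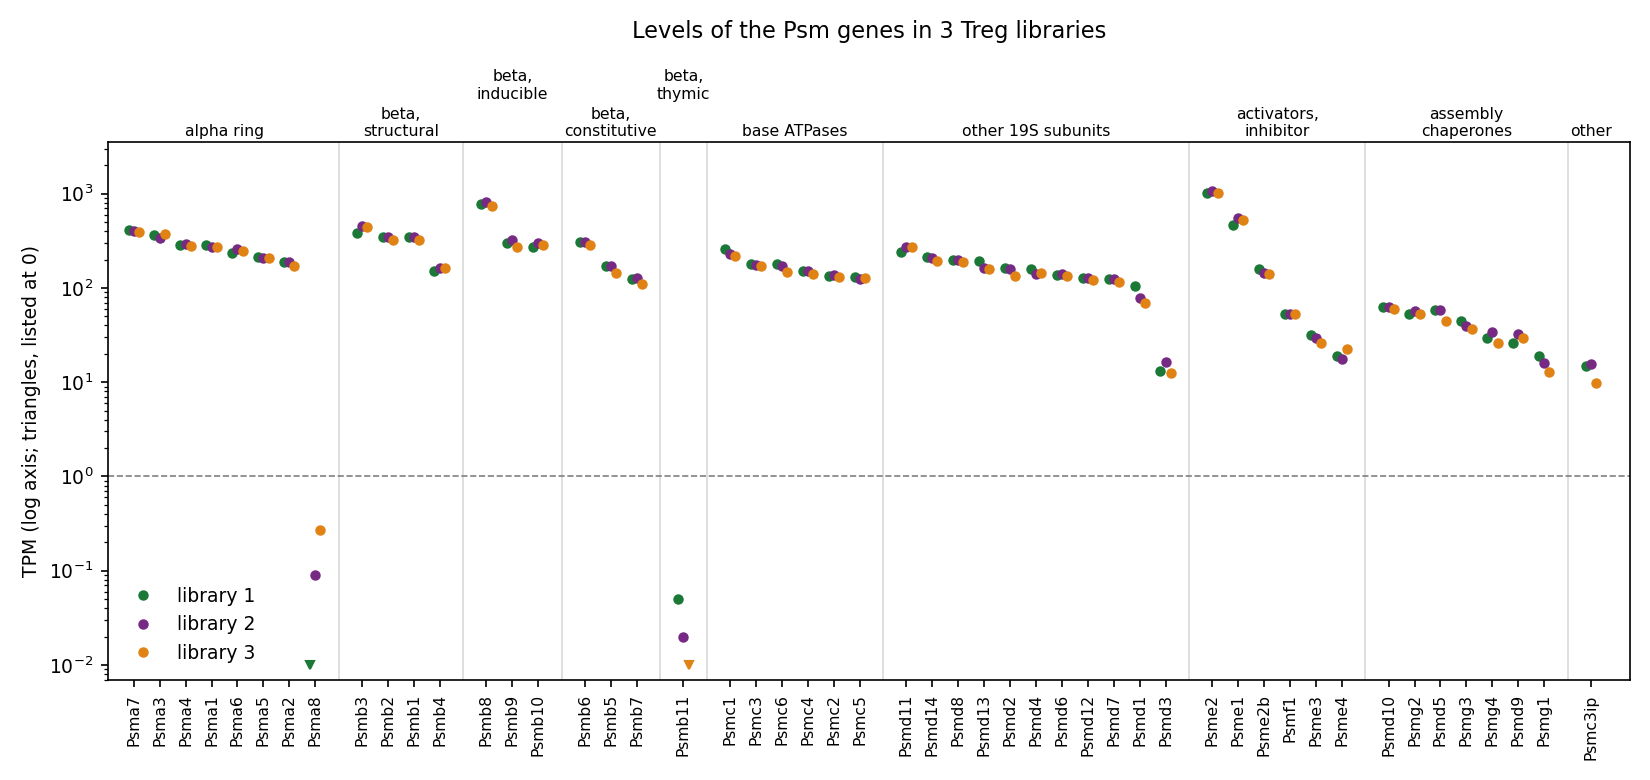
TPM of the 50 proteasome genes in each library, on a log axis, grouped by role and ordered by mean level within a role; the dashed line marks 1 TPM. Points of the 3 libraries nearly coincide for most genes, Psme2 and Psmb8 stand highest, and Psma8 and Psmb11 lie under the line.

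Psme2 and Psmb8 had the highest TPM of the 50 genes. Psme2, which encodes the beta subunit of PA28, had 1005, 1081 and 1019 TPM in libraries 1, 2 and 3. Psmb8, which encodes the inducible chymotrypsin-like subunit LMP7, had 775, 815 and 741 TPM. In estimated counts, which are not adjusted for length, Psmb8 was the higher, with 6818, 8563 and 5980 against 5814, 7471 and 5217 for Psme2. Psme1, the alpha subunit of PA28, came next with 467, 551 and 522 TPM. The ranges of these 3 genes over the libraries did not overlap with each other. Below them the order was less clear: of the 49 neighbouring pairs in the order of mean levels, 13 had ranges that did not overlap and 20 kept their order in each library.

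Inducible genes held the larger part of the catalytic subunit TPM, by a margin that depended on which transcripts were counted. Summed over Psmb8, Psmb9 and Psmb10, the inducible genes had 1349, 1432 and 1298 TPM in libraries 1, 2 and 3, against 603, 602 and 543 TPM for the constitutive Psmb5, Psmb6 and Psmb7. The inducible share was thus 69.1%, 70.4% and 70.5%, or 70% ± 0.793 (SD, n = 3 libraries). Over transcripts annotated as protein coding alone, an alternative chosen after seeing the data, the inducible sums were 669, 735 and 603 TPM, against 579, 584 and 519 TPM for the constitutive genes, and the inducible share was 54.3% ± 1.18 (SD, n = 3 libraries). The pairs that replace each other in the core differed widely among themselves. For the chymotrypsin-like site, Psmb8 exceeded its counterpart in every library. Psmb8 averaged 777 ± 37 TPM and Psmb5 averaged 161 ± 15.7 TPM (SD, n = 3 libraries each), with 170, 170 and 143 TPM of Psmb5 in libraries 1, 2 and 3. The difference on the log2(TPM + 0.1) scale was 2.27 ± 0.0939 (SD), which amounts to 4.56-, 4.79- and 5.19-fold in libraries 1, 2 and 3.

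For the trypsin-like site, Psmb10, which encodes MECL-1, had 273, 297 and 286 TPM, against 123, 126 and 111 TPM for Psmb7. The ranges did not overlap, and the log2 difference was 1.25 ± 0.108 (SD), or 2.22-, 2.36- and 2.58-fold. For the caspase-like site the messages were level. Psmb9, which encodes LMP2, had 300, 321 and 271 TPM, against 310, 306 and 289 TPM for Psmb6. Psmb9 was the higher gene in library 2 alone, and the log2 difference was -0.02 ± 0.08 (SD). The exact two-sided test of the pairs flips the signs of the differences, and with 3 libraries its smallest possible p is 0.25. This exact permutation gave 0.25 for Psmb8 against Psmb5, 0.25 for Psmb10 against Psmb7 and 0.75 for Psmb9 against Psmb6, so no pair could pass a 0.05 threshold.

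The read counts behind these pairs were large. Of the reads on Psmb8 and Psmb5 together, Psmb8 took 83.9%, 84.4% and 85.6% in libraries 1, 2 and 3, and the 95% Wilson intervals spanned 83.1 to 84.7%, 83.7 to 85.1% and 84.7 to 86.4%. Psmb9 took 57.2%, 58.2% and 57.1% of the reads on Psmb9 and Psmb6, with intervals of 55.8 to 58.5%, 57 to 59.5% and 55.6 to 58.6%. Psmb10 took 63.9%, 65.2% and 65.7% of the reads on Psmb10 and Psmb7, with intervals of 62.3 to 65.5%, 63.8 to 66.6% and 64 to 67.4%. Each interval lay above an even split, also for Psmb9, because shares of reads are not adjusted for gene length whereas TPM is. Intervals and floors cover counting error only, since PCR copies of a molecule are not independent. The coding sequences of the paired genes shared 63.6% (Psmb8 and Psmb5), 60.9% (Psmb9 and Psmb6) and 61.3% (Psmb10 and Psmb7) of aligned bases, more than any other combination of these 6 genes, which shared 44.6 to 49%.

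**Figure D2:**
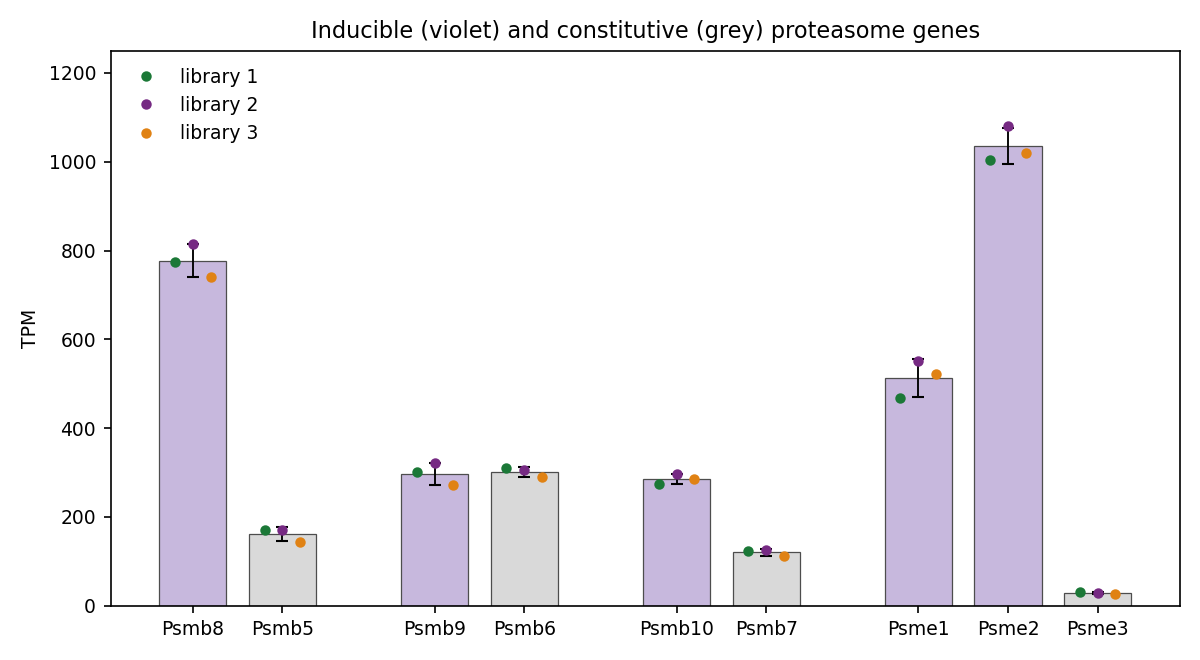
TPM of the inducible genes (violet bars) beside their constitutive counterparts (grey bars); bars are means, error bars are SDs and points are the 3 libraries. Psmb8 and Psmb10 stand above Psmb5 and Psmb7 in each library, Psmb9 and Psmb6 overlap, and Psme1 and Psme2 stand far above Psme3.

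The inducible genes differed from the constitutive ones in which annotated transcripts carried their TPM. Transcripts annotated as protein coding took 56.9% ± 0.748 of the TPM of Psmb8, 39.7% ± 6.03 of Psmb9 and 37.7% ± 4.74 of Psmb10, against 100% of Psmb5, 93.1% ± 1.21 of Psmb6 and 99.1% ± 0.219 of Psmb7 (SD, n = 3 libraries each). For Psmb8 the remainder was 1 class, transcripts with a retained intron at 43.1%, and the transcript Psmb8-205 alone took 42.2%. For Psmb10, retained-intron transcripts took 55%, with 26.1% on Psmb10-205 and 25% on Psmb10-204, and the principal Psmb10-201 took 37.7%. For Psmb9, Psmb9-207, annotated as a target of nonsense-mediated decay, took 45.1%, retained-intron transcripts took 15.3%, and the coding Psmb9-204 and Psmb9-202 took 25.9% and 11.6%. In estimated counts the split was different, since TPM gives short transcripts more weight. Psmb10-201 held 1269, 1648 and 967 of the 2217, 2889 and 1994 counts of Psmb10 in libraries 1, 2 and 3. Psmb8-205 held 3579, 4365 and 3086 counts, against 3087, 3854 and 2710 for the coding Psmb8-203. The constitutive genes each rested on 1 transcript, with Psmb5-201 at 99.7%, Psmb6-201 at 93.1% and Psmb7-201 at 99.1% of the TPM. Over the 48 expressed proteasome genes the median coding share was 94%, with 28 genes at 90% or more and 6 under 50%. Over the 10131 expressed protein-coding genes the median was 86.5%, with 43.9% of them at 90% or more and 16.1% under 50%.

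The annotation of Psmb8 bears on its level. Psmb8-203, which took 55.3% of the gene TPM, is annotated without a complete 3' end and is 840 bases long. Psmb8-201, the full-length principal transcript of 1628 bases, took 0.957%. Reads in sequence shared by these transcripts are divided by a model, so the split is an estimate rather than a count. When only coding transcripts were summed, the log2 difference was 1.46 for Psmb8 against Psmb5, -1.26 for Psmb9 against Psmb6 and -0.15 for Psmb10 against Psmb7, so the direction of the Psmb10 pair turned. When all reads of a gene were divided by the length of its principal transcript, an alternative chosen after seeing the data, the differences were 1.61, -0.32 and 0.71. Psmb8 thus exceeded Psmb5 under each of these measures, and the size of the difference depended on the measure for all 3 pairs.

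**Figure D3:**
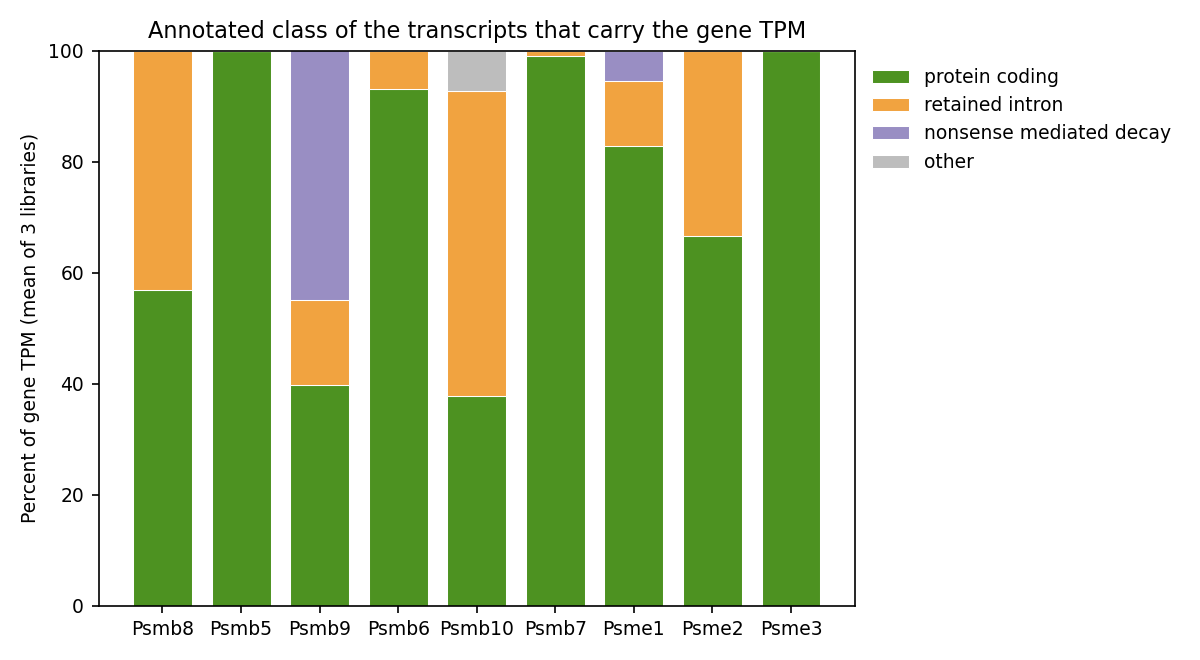
Mean percent of each gene's TPM over 3 libraries by annotated transcript class. Coding transcripts fill 93.1 to 100% of the bars of Psmb5, Psmb6, Psmb7 and Psme3 and 37.7 to 56.9% of those of Psmb8, Psmb9 and Psmb10.

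Psmb8 and Psmb9 flank the peptide transporter gene Tap1 within the MHC region. On mm10 with GENCODE M21, Psmb9 lies at chr17:34181987-34187764 on the minus strand and Psmb8 at chr17:34197721-34201454 on the plus strand. Psmb9 overlaps the start of Tap1 by 212 bases on the opposite strand, and Psmb8 begins 495 bases after Tap1 ends. Psmb10 lies elsewhere, at chr8:105935735-105938444 on the minus strand. The strand setting of the counting is not given in the sources used here, so reads in the overlap of Psmb9 and Tap1 cannot be told apart without it. The counterparts Psmb5, Psmb6 and Psmb7 lie on chromosomes 14, 11 and 2.

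The PA28 genes showed the widest contrast. PA28 is an 11S ring that opens the gate of the 20S core; the interferon-inducible form is built from the products of Psme1 and Psme2, and the nuclear form from that of Psme3. Psme1 averaged 513 ± 42.8 TPM and Psme2 1035 ± 40.8 TPM, against 28.9 ± 2.63 TPM for Psme3 (SD, n = 3 libraries each), which had 31.4, 29.2 and 26.1 TPM in libraries 1, 2 and 3. The log2 difference from Psme3 was 4.15 ± 0.224 (SD) for Psme1 and 5.16 ± 0.146 (SD) for Psme2, positive in 3 of 3 libraries for both, with an exact sign-flip p of 0.25. Psme1-208 took 66.2% of the TPM of Psme1 and Psme2-201 took 58.5% of that of Psme2, where the retained-intron transcripts Psme2-206 and Psme2-203 held 17.7% and 11.4%. Psme3-201 took 98.9% of Psme3. Restricted to coding transcripts the differences were 3.87 and 4.58. In estimated counts without length adjustment they were 2.64 and 3.12. The whole-number table, which has no length adjustment either, gave 2.64 and 1.51. Psme1 at chr14:55578123-55581529 and Psme2 at chr14:55587441-55591113 are neighbours on opposite strands, 5911 bases apart.

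Psme2b, a gene on chromosome 11 whose coding sequence shares 99.3% of aligned bases with Psme2, had 157, 144 and 139 TPM. The deposited posterior SD of its count, which grows where reads could belong to several genes, was 53.1, 54.7 and 46.6 reads and the same for Psme2, on counts of 1119, 1241 and 911 for Psme2b. Reads of such near-identical copies can be divided between them in several ways. The whole-number table, with totals of 2988262, 3386154 and 2734873 counts, held 8.21% of the estimated count of Psme2 and 12.2% of that of Psme2b. The median over the 48 genes was 46%. Low shares were also seen for Psma5 (10.4%), Psmb3 (10.9%) and Psmg3 (14.3%), whose posterior SDs were at most 9.08 reads. Psma3, with the largest posterior SD, had 6.83%. The cause of the low shares was not tested. Psme4, which encodes the activator PA200, had 19, 17.7 and 22.6 TPM. Psmf1, which encodes the proteasome inhibitor PI31, was among the steadiest genes, at 53 ± 0.317 TPM (SD, n = 3 libraries).

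Promoter windows show which letters known for interferon or stress control lie near the starts of these genes. RefSeq windows on GRCm38.p6, from 250 bases before to 50 after a start, were matched for 42 of the 50 genes and searched on both strands. The interferon-stimulated response element core (GAAA, any pair of bases, GAAA) was found in 5 of 42 genes (11.9%), against 3.99% of 27025 genes. Its carriers were Psme1, the core subunit gene Psmb3, the ubiquitin receptor gene Psmd4 and the assembly factor genes Psmd9 and Psmg4. No match lay in the windows of Psmb8, Psmb9 and Psmb10. Those of Psmb8 and Psmb9 lie inside the GENCODE M21 genes, so the bases before these annotated gene starts were not searched. The gamma-activated site core TTCNNNGAA was found in 3 of 42 (7.14%), Psmb8 among them, against 9.55% of all genes. The antioxidant response element core TGACNNNGC, bound by the Nfe2l1 and Nfe2l2 proteins, was found in 6 of 42 (14.3%), against 14% of all genes. Psmb5 and Psmb6 were among the 6, and Psmb7 had no window to search. CCAAT was found in 15 of 42 (35.7%), against 41.1%. The windows below show 1 match each in capitals, for an inducible subunit, an inducible activator and 2 constitutive subunits. The capitals mark the gamma-activated site core at position -97 in Psmb8 and the response element on the reverse strand at position 9 in Psme1. They also mark the antioxidant core at positions -47 in Psmb5 and -9 in Psmb6. Positions count from the RefSeq start of the window. In GENCODE M21, Psmb8 and Psme1 begin further upstream, at chr17:34197721 and chr14:55578123, so both windows lie inside the annotated gene. A match is a run of letters, not a measured binding site.
Psmb8, chr17:34197945-34198244, plus strand: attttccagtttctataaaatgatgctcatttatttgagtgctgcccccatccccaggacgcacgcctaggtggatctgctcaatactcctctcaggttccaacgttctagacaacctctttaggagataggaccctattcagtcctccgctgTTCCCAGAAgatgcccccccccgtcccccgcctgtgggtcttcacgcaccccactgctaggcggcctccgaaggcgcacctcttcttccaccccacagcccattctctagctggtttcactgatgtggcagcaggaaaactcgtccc
Psme1, chr14:55578244-55578543, plus strand: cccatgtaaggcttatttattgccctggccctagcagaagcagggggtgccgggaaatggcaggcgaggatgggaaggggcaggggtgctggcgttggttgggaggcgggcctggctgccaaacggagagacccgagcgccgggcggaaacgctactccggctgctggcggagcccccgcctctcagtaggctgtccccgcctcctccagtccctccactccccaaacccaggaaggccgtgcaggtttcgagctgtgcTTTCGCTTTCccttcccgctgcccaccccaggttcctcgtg
Psmb5, chr14:54617946-54618245, minus strand: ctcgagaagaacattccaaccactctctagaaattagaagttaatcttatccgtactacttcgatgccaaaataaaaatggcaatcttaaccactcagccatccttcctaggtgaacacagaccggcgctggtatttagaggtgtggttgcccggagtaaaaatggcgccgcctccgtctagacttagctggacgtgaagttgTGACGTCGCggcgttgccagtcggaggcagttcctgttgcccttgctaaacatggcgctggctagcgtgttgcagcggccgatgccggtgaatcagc
Psmb6, chr11:70525107-70525406, plus strand: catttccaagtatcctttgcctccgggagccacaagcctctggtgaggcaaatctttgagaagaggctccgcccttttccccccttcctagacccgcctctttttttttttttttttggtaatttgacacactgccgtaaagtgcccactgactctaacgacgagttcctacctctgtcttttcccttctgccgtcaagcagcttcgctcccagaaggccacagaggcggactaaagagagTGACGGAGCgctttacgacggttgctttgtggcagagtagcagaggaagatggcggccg

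Genes of the rest of the 20S core lay within a narrow band. The alpha ring forms the gate of the core, and its 7 expressed genes ranged from 181 TPM for Psma2 to 405 TPM for Psma7. Psma7 had 415, 404 and 396 TPM and Psma2 had 187, 188 and 169 TPM in libraries 1, 2 and 3, with no overlap. Of the 4 beta genes without a catalytic site, Psmb3 was highest with 380, 458 and 440 TPM, and Psmb4 lowest with 150, 161 and 164 TPM. The median of the 4 was 346, 344 and 322 TPM. Psmb8 was thus the highest gene of the 20S core, and Psmb7 and Psmb5 were with Psmb4 its lowest expressed members. In Psmb4 and Psma3 coding transcripts took 24% and 28.7% of the gene TPM, the lowest shares among the expressed genes. Psma3 also had the largest posterior SD of the set, 89.5, 91.4 and 75 reads on counts of 3359, 3815 and 3281.

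Genes of the 19S cap were somewhat lower than those of the core. The 6 genes of the base ATPases, which unfold substrates, ranged from 128 TPM for Psmc5 to 235 TPM for Psmc1. Psmc1 had 262, 229 and 216 TPM, and Psmc5 had 132, 125 and 126 TPM. The 11 other cap genes ranged from 14 to 262 TPM. Psmd11, which encodes a lid subunit, had 239, 274 and 274 TPM. The lid gene Psmd3 stood apart from the others with 13.2, 16.4 and 12.4 TPM, and the next lowest, the base scaffold gene Psmd1, had 105, 79.1 and 69.4 TPM. Psmd14, the deubiquitinase of the lid, averaged 205 TPM and Psmd4, a ubiquitin receptor, averaged 147 TPM. Psmd13 averaged 172 TPM and overlaps the processed pseudogene Gm15542 on the same strand, which was assigned 141 TPM. The deposited posterior SD of the Psmd13 count was at most 0.69 reads, on counts of 1735, 1785 and 1321.

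Among the expressed genes named Psm, the assembly factors were the lowest proteasome role by median, at 40.1 TPM. Pomp, a maturation factor not named Psm, is not counted in this role and had 586, 568 and 527 TPM. The 7 genes of the role ranged from 16 to 62 TPM, below every alpha, beta and base ATPase gene that was expressed. Psmd10, which encodes gankyrin, had 63.5, 63 and 59.6 TPM, and Psmg1, a chaperone of alpha ring assembly, had 19.1, 16.1 and 12.9 TPM. Psmc3ip, which the naming rule takes in although it encodes a partner of recombinases and not a proteasome subunit, had 14.8, 15.7 and 9.81 TPM. Without it the median of the set was 158 TPM.

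Levels differed little between the libraries, but mostly in 1 direction. A chi-square test of homogeneity on the estimated counts, scaled by the TMM method, with Benjamini-Hochberg adjustment over 13970 genes, called 37 of the 48 tested proteasome genes at an adjusted p of 0.05 (77.1%), against 45.7% of all tested genes. The 2 genes not tested were Psma8 and Psmb11, whose mean counts were under 10. By role, the test called 5 of 7 alpha ring genes, 4 of 4 structural beta genes, 3 of 3 inducible and 3 of 3 constitutive catalytic genes, 4 of 6 base ATPase genes, 10 of 11 other cap genes, 4 of 6 activator or inhibitor genes and 3 of 7 chaperone genes, and Psmc3ip. Differences were small: the median ratio of the highest to the lowest library was 1.14 over the proteasome genes and 1.26 over all tested genes, and 2 of 48 genes (4.17%) were called with a ratio over 1.5, against 17.5% of all tested genes. Counts of the proteasome genes were high, with a median of 1921 reads for the set against 238 for the tested genes, and the test detects smaller differences at higher counts. Among the 9073 genes of 100 counts or more, 53.9% were called, and the proteasome count stayed at 37 of 48.

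Library 3 was the low one. TMM-scaled CPM was lowest in library 3 for 40 of 48 proteasome genes (83.3%), against 37.3% of all tested genes. It was lowest in library 1 for 7 (31.7% of all genes) and in library 2 for 1 gene, Psma3 (31% of all genes). All 3 inducible and all 3 constitutive catalytic genes, all 6 base ATPase genes and 10 of the 11 other cap genes were lowest in library 3. Psmb8 had 580, 620 and 544 CPM in libraries 1, 2 and 3, with an adjusted p of 8.14e-13 by the chi-square test. Psmb5 had 111, 114 and 91.7 CPM, with an adjusted p of 6.33e-07. In TMM-scaled CPM of the estimated counts, the inducible and constitutive genes thus lay lowest in the same library. In TPM, Psmb10 was instead lowest in library 1, whereas Psmb8, Psmb9 and the constitutive genes were lowest in library 3. In the whole-number counts, scaled to library size, the inducible sum was highest in library 3, at 1213, 1163 and 1261. The constitutive sum was lowest there, at 615, 604 and 585. The inducible share of the catalytic TPM was 69.1% to 70.5%, or 53.6% to 55.7% over coding transcripts alone.

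The largest chi-square of the set belonged to Psmd1, at 57.9 per degree of freedom, where counting noise alone gives about 1. Psmd1 had 182, 154 and 126 CPM in libraries 1, 2 and 3, with an adjusted p of 2.60e-24 and a ratio of 1.45. The 2 genes with a ratio over 1.5 were Psmg1, at 14, 12.7 and 9.1 CPM (adjusted p = 0.00708), and Psmc3ip, at 12.2, 13 and 7.92 CPM (adjusted p = 0.00177), in the same chi-square test. Both were lowest in library 3. Psmb3 went another way, with 211, 262 and 241 CPM and its lowest value in library 1 (adjusted p = 2.85e-14). Psme1, at 336, 393 and 354 CPM, was also lowest in library 1 (adjusted p = 2.90e-12).

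Markers of dividing cells were lowest in the same library. Summed over Mki67, Top2a, Rrm2, Stmn1 and Hmgb2 they were at 2339, 2170 and 1551 TPM, and 5 of the 5 were lowest in library 3. Haemoglobin and B cell markers were highest there, as given above. The part of either in the proteasome differences was not tested. The number of calls also depended on scaling and on the table used. Without TMM, 24 of 48 were called (50%, against 46.1% of all genes), and in the whole-number gene counts 7 of 48 (14.6%, against 21.6%). With library 1, 2 or 3 left out, 33, 26 and 13 of 48 were called (68.8%, 54.2% and 27.1%), against 33.8%, 30.7% and 21.3% of all genes. The lean towards library 3 held without TMM, where 35 of the genes were lowest in library 3 (28.5% of all genes) and 4 in library 2 (38.7%). In the whole-number counts 25 were lowest in library 3 (36.9% of all genes) and 18 in library 2 (30.8%).

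**Figure D4:**
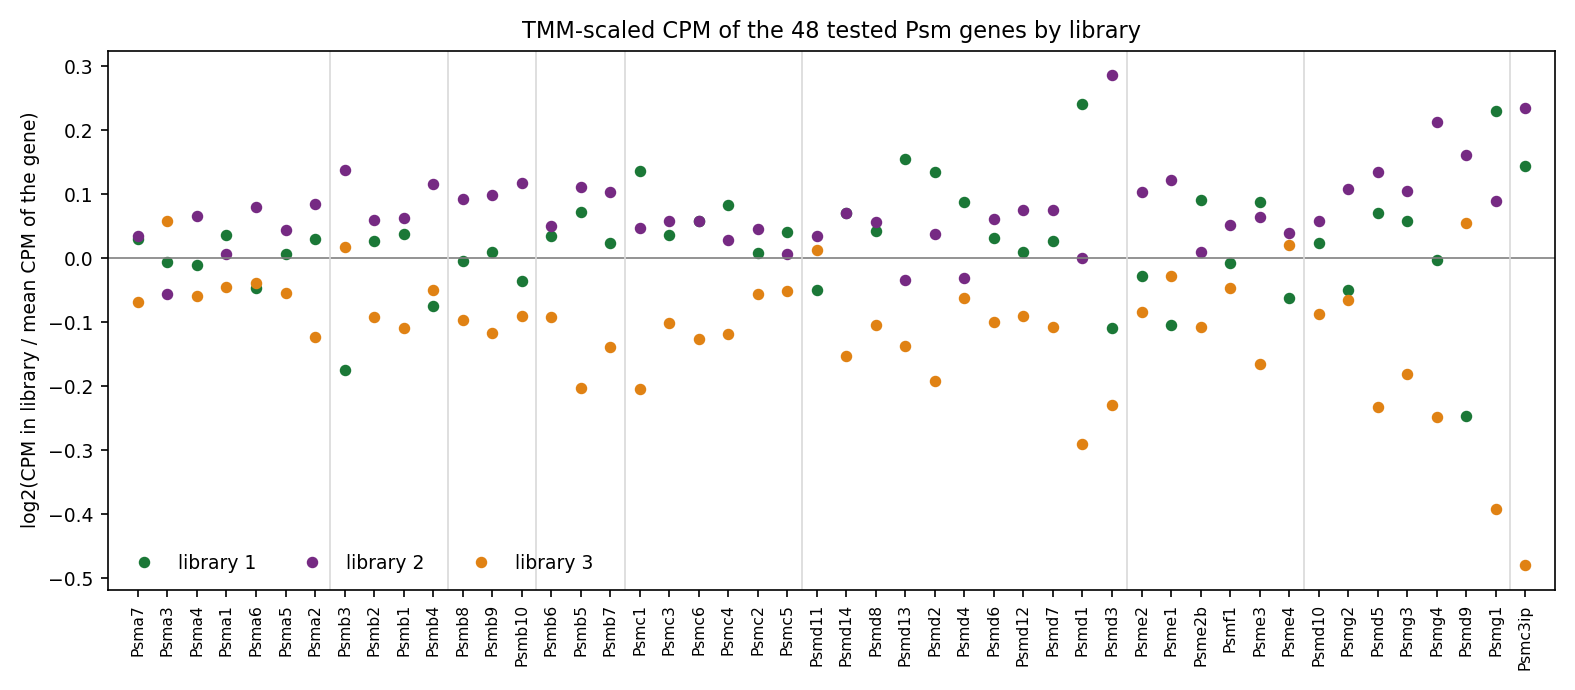
log2 ratio of the TMM-scaled CPM in each library to the mean of the gene, for the 48 tested proteasome genes grouped by role as in the plot of levels. Library 3 (orange) is the lowest point for 40 genes, and Psmg1, Psmc3ip, Psmd1 and Psmd3 spread most.

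**Figure D5:**
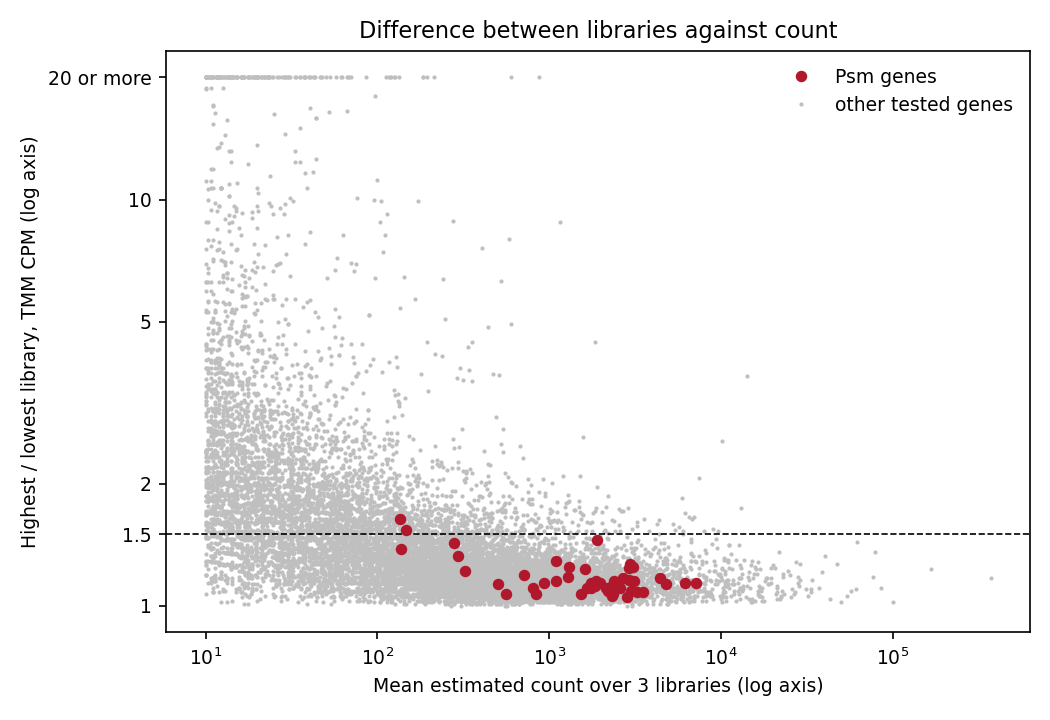
Ratio of the highest to the lowest library against mean count, both on log axes, for the proteasome genes (red) and the other tested genes (grey); ratios of 20 or more are drawn at 20. Of the proteasome genes, 2 lie above the dashed line at 1.5, both with low counts.

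Genes that act with the proteasome were expressed throughout. A list of 32 partners was drawn up, of which 31 were found in the annotation, and all 31 reached 1 TPM in every library. The ubiquitin gene Ubb was the highest of them, at 4124 ± 89.7 TPM (SD, n = 3 libraries). Pomp, the maturation factor of the core, had 586, 568 and 527 TPM. Of the factors that drive immunoproteasome and class I genes under interferon, Irf1 had 197, 217 and 189 TPM and Nlrc5 averaged 95.2 TPM. Among the class I pathway genes, Tapbp averaged 334 TPM, Tap1 164 TPM, Tap2 150 TPM and the peptide-trimming Erap1 105 TPM. Nfe2l1 and Nfe2l2, factors that raise constitutive subunit genes under stress, averaged 17.8 and 29.6 TPM.

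The partners differed between libraries in several directions. Of the 31, 19 were called by the chi-square test (61.3%, against 45.7% of all tested genes). Their median count was 1418, against 238 for the tested genes. Among genes of 100 counts or more, 62.1% of the partners and 53.9% of all genes were called. Of the 19, 11 were lowest in library 3, 6 in library 1 and 2 in library 2. Of the 6388 called genes of any kind, 2718 were lowest in library 3, 1891 in library 1 and 1779 in library 2. The chaperone Pomp was lowest in library 3, whereas Ubb and Rps27a were lowest in library 1. Only Akirin2, which helps import proteasomes into the nucleus, and Zfand5, a zinc finger protein that binds the 19S cap, had a ratio over 1.5 among the called partners. Akirin2 had 4.99, 7.35 and 8.48 TPM, with a ratio of 1.62 and an adjusted p of 0.0242. Zfand5 had 11.6, 10.7 and 14.6 TPM, with a ratio of 1.53 and an adjusted p of 1.70e-07. Both were highest in library 3, the library in which most proteasome genes were lowest.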

How the data were processed

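Each library came with 3 tables. The authors' gene table holds estimated counts, where a model divides reads that map to several places, and TPM in RSEM's column layout, per the file headers, on mm10 and GENCODE M21, per the deposited descriptions. Its posterior SD of a count is a signal in reads, as deposited. The deposited transcript table adds the percent of the gene's TPM per transcript. Another deposited table holds whole-number gene counts on GENCODE M4. For aligner, versions, strand setting and duplicate treatment: not given in the sources used here.

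Members and lists were chosen with earlier results of these data known. With 1 group no group test exists, so libraries were compared per gene by a Poisson chi-square test on rounded estimated counts, with library sizes adjusted by TMM (edgeR 4.0.16, R 4.3.3; mean count at least 10) and Benjamini-Hochberg adjustment at 0.05. It treats reads as independent and says nothing of other animals. The test was run beforehand on simulated Poisson counts, the noise it assumes, so that run says nothing of further noise between libraries. Pairs were compared by log2(TPM + 0.1) within a library with an exact sign-flip test; this scale understates differences of low genes. Coding identity came from global alignment of the annotated principal transcripts (Biopython 1.88), since protein sequences were not used here. Genes given per library were the catalytic and PA28 genes, the highest and lowest of each role, genes under 1 TPM, and called genes with a ratio over 1.5. Others were named after their values were seen, such as Psme2b, Psmd1 and Psmd3. Values of some partner genes are not reported here. Alternatives covered scaling, count filters, the unit, the pseudocount and each library left out, with DESeq2 1.42.0 size factors.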

Additional observations from a re-analysis of the deposited data

How the results depend on the processing

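Of 105 alternatives, 87 kept the direction of a difference, held a count within 1.5 times or moved a share by less than its SD. Without TMM, 24 proteasome genes were called and 4 were lowest in library 2. In the whole-number counts, 2154 genes, 7 proteasome genes and 9 partners were called, and 18 and 25 proteasome genes were lowest in libraries 2 and 3. Leaving out 1 library gave 2978 to 4765 genes, 13 to 33 proteasome genes and 10 to 15 partners, with the fewest calls without library 3. The difference of Psmb9 from Psmb6 was 0.44 without length adjustment, 0.09 in the whole-number counts and -0.07 to 0.01 with 1 library left out, and that of Psmb10 from Psmb7 was -0.15 in coding transcripts alone. The inducible share of the catalytic genes, whose alternatives were chosen after seeing the data, was 54.3% in coding transcripts, 61.5% per principal transcript length, 66.8% in the whole-number counts, 72.4% without length adjustment and 69.7 to 70.5% with 1 library left out. The cause was not tested. The difference of Psmb8 from Psmb5 ranged from 1.46 in coding transcripts to 2.56 per coding transcript length, a unit chosen after seeing the data. The whole-number counts held 6.83% (Psma3) to 77.5% (Psmg1) of the estimated counts of a proteasome gene, with a median of 46%. No fit with the replicate number as a block was possible because there was 1 group. With 1 biological replicate, nothing here measures the spread between animals. In the estimated counts depth does not limit the catalytic pairs, whose genes had over 1000 in each library. The whole-number counts were lower, with 318, 346 and 241 for Psmb5 in libraries 1, 2 and 3.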

Other observations

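The 4 pseudogenes that the naming rule excluded held few reads. Psmb6-ps was listed at 0 in each library, Psmb5-ps had 1.01, 0 and 1.01 estimated counts, Psmb6-ps2 had 3.17, 3.14 and 2.16, and Psmb7-ps2 had 0, 4.93 and 1.42. Their parent genes Psmb5, Psmb6 and Psmb7 had 1008 to 2502 counts, so at most a few reads were assigned to these copies.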
